A study of Mus musculus with 7 samples.

Results

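Arginine, nitric oxide and oxidant enzymes were examined through 8 genes: Nos2, Ass1, Asl, Gch1, Slc7a2, Sod2, Cybb and Ncf1. They were selected by gene symbol, and all 8 were listed among the 17920 genes of the expression table. RNA was sequenced from whole crushed spleen of 8-week-old C57BL/6 mice that had received 20 mg/kg lipopolysaccharide (LPS) by intraperitoneal injection. Spleens were taken at 90 min from 2 wild-type and 2 GdX-/- mice and at 6 h from 2 wild-type mice and 1 GdX-/- mouse, and the treatment protocol writes the knockout genotype GdX-/Y. GdX is the protein of the X-linked gene Ubl4a. Each library came from a separate mouse according to the study design, every mouse had received LPS, and spleen without LPS was not analysed here. The labels name no cell type for the deletion, so the cells in which GdX was lost are not specified.

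Nitric oxide synthases make nitric oxide and citrulline from arginine. NOS2, the inducible enzyme, is switched on in macrophages by LPS together with interferons. It depends on arginine import by the cationic amino acid transporter CAT2 (Slc7a2), on tetrahydrobiopterin, whose synthesis GCH1 starts, and on citrulline being recycled to arginine by ASS1 and then ASL. The phagocyte NADPH oxidase makes superoxide through its catalytic subunit gp91phox (Cybb) and its cytosolic organizer p47phox (Ncf1), and SOD2 removes superoxide in mitochondria.

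The level unit was FPKM, fragments per kilobase of transcript and 1000000 mapped fragments, which can be compared between genes because it is per length. Ncf1 was the most abundant member, with a mean over the 7 libraries of 122.8 FPKM, followed by Cybb at 94.4, Sod2 at 65.7, Ass1 at 39.4 and Gch1 at 17.8 FPKM. The lower members were Asl at 10.5, Slc7a2 at 4.23 and Nos2 at 1.27 FPKM. Every neighbouring pair in this order overlapped in its range over the libraries. All 8 had a mean of at least 1 FPKM and were tested.

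The libraries held an estimated 18900000 to 21200000 mapped fragments each. The share of summed FPKM held by globin genes lay between 7.73% and 30.9%. Transcripts of the targeted gene were checked as Ubl4a together with Gm44504, a RefSeq entry that overlaps it and carries the synonym Slc10a3-ubl4. Their sum was 5.04 to 11.2 FPKM in the 3 GdX-/- libraries and 21.02 to 62.98 FPKM in the 4 wild-type libraries. Ubl4a alone stood at 4.03 and 5.69 FPKM against 5.62 and 7.5 FPKM at 90 min and at 10.6 against 11.9 and 14.0 FPKM at 6 h, so the entry itself overlapped at 90 min. Of the spleen marker lists, all 7 B cell, all 6 listed red pulp macrophage and all 9 monocyte and macrophage markers had a mean of at least 1 FPKM, as had 5 of 6 dendritic cell markers. Of the 2 liver markers in the table, Alb and Apoa1, neither exceeded 0.16 FPKM in any library. Of the 4 pancreas markers in the table, Cela1 stood at 2.46 to 8.17 FPKM and the others at no more than 0.24 FPKM. In whole tissue, fewer cells of a type and less RNA per cell cannot be told apart, which applies to every level below.

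**Figure D1:**
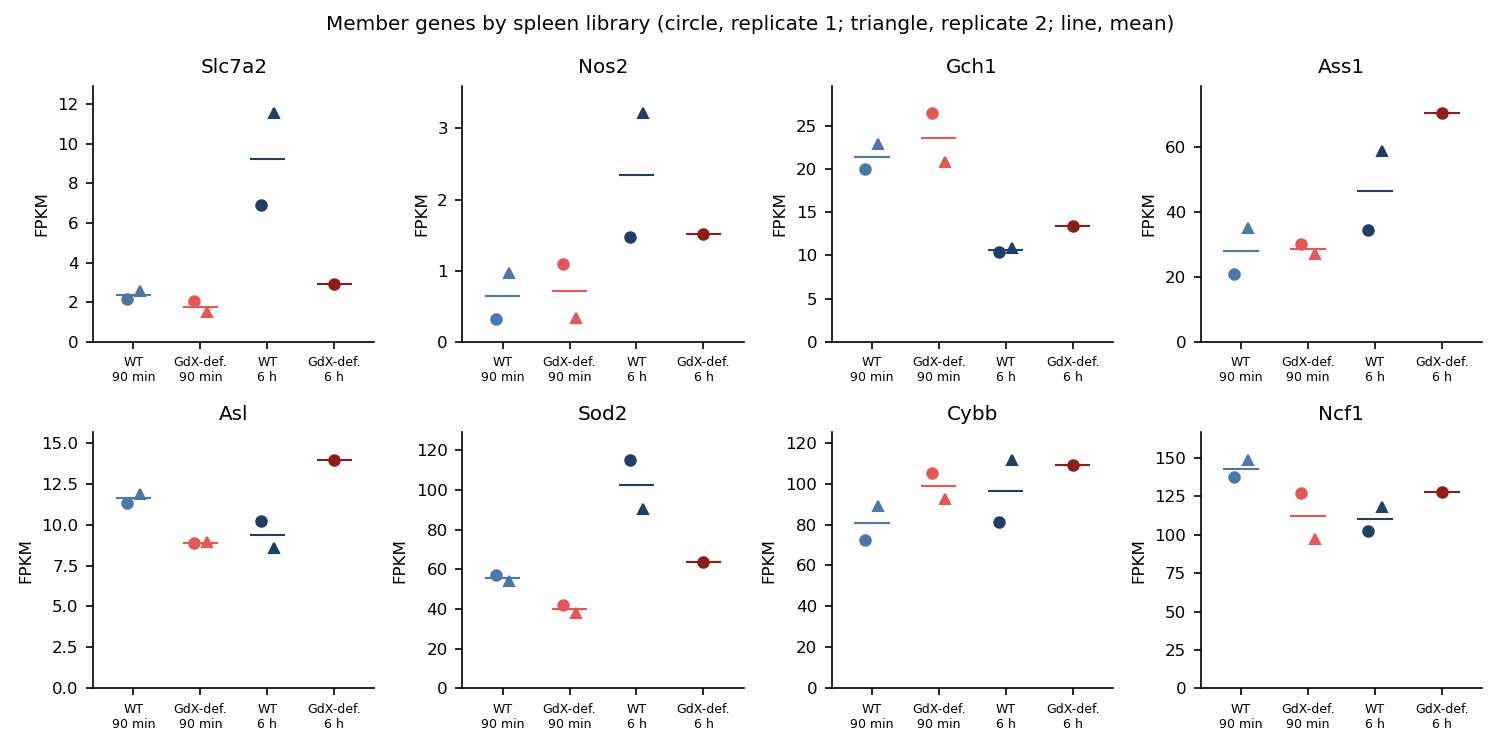
Levels of the 8 members in FPKM (vertical axes, each from 0) in the 7 spleen libraries, grouped by genotype and time after LPS on the horizontal axes. Circles are replicate 1, triangles replicate 2 and lines group means. Slc7a2 reached 6.88 and 11.5 FPKM in wild type at 6 h and at most 2.94 FPKM in the other 5 libraries.

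Promoter sequence is shown for members on either side of the main contrast: Sod2 and Gch1, whose RNA moved in opposite directions with time, and Cybb and Ncf1, the oxidase pair that passed in no comparison. Each line gives the 250 bases upstream of the transcript start, 5′ to 3′ on the gene's strand, from RefSeq on GRCm38.p6. The windows lie at chr17:13007589-13007838 on the plus strand for Sod2, chr14:47189414-47189663 on the minus strand for Gch1, chrX:9469325-9469574 on the minus strand for Cybb, whose listed start lies inside the annotated gene span, and chr5:134229626-134229875 on the minus strand for Ncf1. Capitals mark every match, on either strand, to one of 5 motifs: the kappa B-like motif, the interferon-gamma activated site TTCNNNGAA, the interferon-stimulated response element (a pair of GAAA elements with a gap), the AP-1 site TGANTCA and the CCAAT/enhancer-binding protein site TTGCNNAA.
Sod2: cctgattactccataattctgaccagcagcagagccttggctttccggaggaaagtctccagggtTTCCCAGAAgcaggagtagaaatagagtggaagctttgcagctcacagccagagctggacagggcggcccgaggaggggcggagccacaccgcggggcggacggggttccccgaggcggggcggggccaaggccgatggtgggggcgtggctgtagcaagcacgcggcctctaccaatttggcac
Gch1: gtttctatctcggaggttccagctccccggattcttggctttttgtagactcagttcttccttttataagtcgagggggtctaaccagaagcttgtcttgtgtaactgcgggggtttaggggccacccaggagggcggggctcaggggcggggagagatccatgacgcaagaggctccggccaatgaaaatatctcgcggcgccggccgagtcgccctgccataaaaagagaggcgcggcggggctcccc
Cybb: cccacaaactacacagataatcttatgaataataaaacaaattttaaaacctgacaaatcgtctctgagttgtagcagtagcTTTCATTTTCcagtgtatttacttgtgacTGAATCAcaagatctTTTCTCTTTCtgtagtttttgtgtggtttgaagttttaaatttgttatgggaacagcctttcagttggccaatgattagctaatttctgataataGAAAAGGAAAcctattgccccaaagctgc
Ncf1: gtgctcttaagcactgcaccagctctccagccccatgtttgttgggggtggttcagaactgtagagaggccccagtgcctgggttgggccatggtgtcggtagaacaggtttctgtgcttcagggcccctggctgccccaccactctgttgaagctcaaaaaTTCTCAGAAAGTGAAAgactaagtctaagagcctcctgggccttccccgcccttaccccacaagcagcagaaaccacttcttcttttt

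The Cybb window held 3 matches to the interferon-stimulated response element and 1 to the AP-1 site. The Ncf1 window held 1 match to the interferon-stimulated response element and 1 to the interferon-gamma activated site, which overlap. Sod2 had 1 match to the interferon-gamma activated site, 185 to 177 bases before the start, and Gch1 had no match to any of the 5. Among 32851 RefSeq promoter windows of the same length, 2.98% held the interferon-stimulated response element, 7.02% the interferon-gamma activated site, 6.75% the AP-1 site, 4.64% the kappa B-like motif and 9.56% the CCAAT/enhancer-binding protein motif. A window was given for 5 of the 8 members, the fifth being Ass1, and these matches describe letters only, not binding.

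The uptake and synthesis arm was compared over time first. In wild-type spleen the arginine transporter gene Slc7a2 rose between 90 min and 6 h. In GdX-/- spleen the single 6 h library was 0.52 on the log2 scale above the 90 min mean and above both 90 min libraries, without a test. Nos2 itself stayed low in all 7 libraries, and Gch1 fell with time in the fit over both genotypes. Of the 8 members, 1 passed the threshold in wild type, Slc7a2, beside 10.7% of all 11378 genes tested, 4.39% higher and 6.32% lower. With genotype as covariate, 3 of 8 passed, Slc7a2 and Sod2 higher and Gch1 lower at 6 h, beside 5.44% of all genes, 2.79% higher and 2.65% lower.

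Separation of the libraries without a test was common among all genes. Over time in wild type 6 of 8 members did not overlap, 3 higher and 3 lower at 6 h, beside 57.9% of all genes, 30.3% higher and 27.6% lower. Within both genotypes in the same direction, 4 of 8 separated by time, 3 higher and 1 lower, beside 33.6% of all genes, which were 2729 genes higher and 1092 genes, or 9.6%, lower. In GdX-/- spleen the 6 h library lay outside the 90 min pair for 8 of 8, 7 higher and 1 lower, beside 72.6%, 56.8% and 15.8%. For genotype at 90 min 5 of 8 did not overlap, 1 higher and 4 lower in GdX-/- spleen, beside 47.5%, 24.1% and 23.4%. For genotype at 6 h 6 of 8 did not, 4 higher and 2 lower, beside 80.3%, 54.9% and 25.3%. At both times in the same direction it was 2 of 8, Slc7a2 and Sod2, both lower, beside 32.1%, 19.0% and 13.0%. With 8 members, nothing particular to them is read from these counts.

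Slc7a2 (Entrez gene 11988, chr8:40862341-40922070) stood at 2.16 and 2.57 FPKM in wild type at 90 min and at 6.88 and 11.5 FPKM in wild type at 6 h. In GdX-/- spleen it stood at 2.04 and 1.5 FPKM at 90 min and at 2.94 FPKM at 6 h. The wild-type times did not overlap, and the GdX-/- 6 h library lay below both wild-type 6 h libraries and just above all 4 libraries of 90 min. The log2 difference over time in wild type, on the log2(FPKM + 1) scale used for every difference here, was 1.56 (SE 0.32, limma adjusted p = 0.0171, n = 2 a side). The call was lost without a filter on low values (limma adjusted p = 0.0677), after rescaling without globin genes (0.0643) and without wild-type 90 min replicate 1 (0.0920). With genotype as covariate the difference was 1.14 (SE 0.29, limma adjusted p = 0.0475), a call lost in 9 of 12 alternatives, with limma adjusted p up to 0.191 (without wild-type 90 min replicate 1).

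At 6 h the GdX-/- library lay 1.33 on the log2 scale below the wild-type mean for Slc7a2, with 1 library on that side and no test. At 90 min the difference was -0.28 (SE 0.32, limma adjusted p = 0.730), although both GdX-/- libraries were below both of wild type. With time as covariate it was -0.70 (SE 0.29, limma adjusted p = 0.157), lower in 3 of 3 GdX-/- libraries within their time. Whether the genotypes differ in their change over time was not tested.

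Nos2 (Entrez gene 18126, chr11:78920787-78960226) stood at 0.320 and 0.970 FPKM in wild type and 1.09 and 0.330 FPKM in GdX-/- spleen at 90 min. At 6 h it stood at 1.48 and 3.21 FPKM in wild type and 1.52 FPKM in the GdX-/- library. All 3 libraries of 6 h were above all 4 of 90 min, while the genotypes overlapped at both times. An estimated 26 to 92 fragments lay behind each 90 min value and 128 to 279 behind each 6 h value. Nos2 passed the filter on low values only through the 6 h libraries, since its 90 min group means were 0.645 and 0.710 FPKM, so its time differences are given as a description and not as support. The time difference was 1.00 in wild type (SE 0.35, limma adjusted p = 0.0961) and 0.84 with genotype as covariate (SE 0.28, limma adjusted p = 0.0951). The limma adjusted p in wild type ranged over the alternatives from 0.00981 (without wild-type 6 h replicate 1) to 0.405 (without wild-type 90 min replicate 1), and without a filter it was 0.201. The genotype difference was 0.05 at 90 min (SE 0.35, limma adjusted p = 0.963) and -0.36 at 6 h, where the GdX-/- library lay between the wild-type libraries.

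Gch1 (Entrez gene 14528, chr14:47153895-47189413) encodes GTP cyclohydrolase, the rate-limiting step of tetrahydrobiopterin synthesis. Its level was 19.9 and 22.8 FPKM in wild type and 26.4 and 20.7 FPKM in GdX-/- spleen at 90 min, and 10.4 and 10.8 FPKM in wild type and 13.4 FPKM in the GdX-/- library at 6 h. Every library of 6 h was below every library of 90 min. The difference was -0.87 with genotype as covariate (SE 0.21, limma adjusted p = 0.0424) and -0.94 in wild type alone (SE 0.27, limma adjusted p = 0.0551). The wild-type difference passed with the replicate block (limma adjusted p = 0.0296), after quantile normalization (0.0494) and with a mean of at least 5 FPKM (0.0497), and its limma adjusted p reached 0.368 without wild-type 90 min replicate 2. The pooled call was narrow: it was lost in 9 of 13 alternatives, among them each of the 7 fits that left out 1 library, with limma adjusted p from 0.0533 to 0.172, while the difference stayed between -0.80 and -0.94. Gch1 did not separate the genotypes at 90 min (0.13, SE 0.27, limma adjusted p = 0.862), and at 6 h the GdX-/- library was 0.31 above the wild-type mean.

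**Figure D2:**
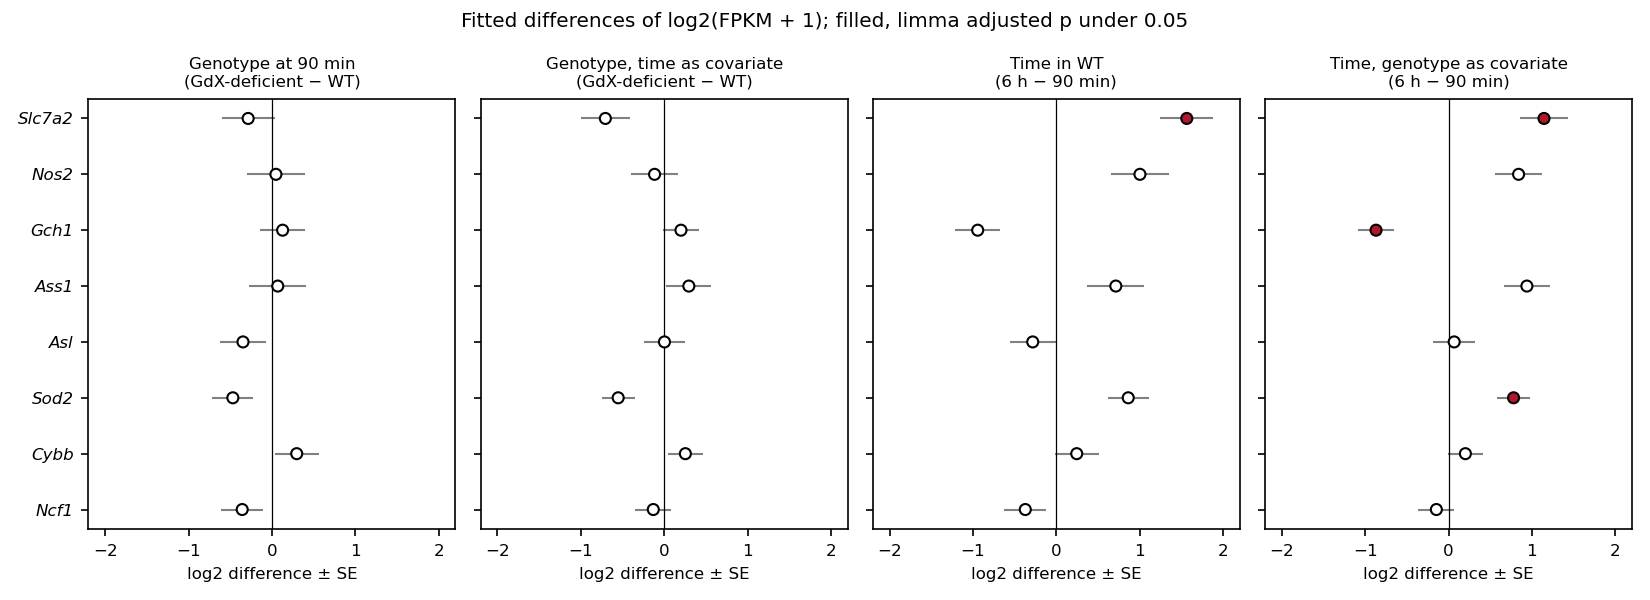
Fitted differences of log2(FPKM + 1) for the 8 members (rows) in 4 comparisons (panels), with horizontal bars of 1 standard error. Filled points passed a limma adjusted p of 0.05: Slc7a2 at 1.56 over time in wild type, and Slc7a2 at 1.14, Gch1 at -0.87 and Sod2 at 0.78 over time with genotype as covariate.

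The other tetrahydrobiopterin genes were compared as a list of 7, of which 6 were tested. With all libraries none passed in any of the 4 tested comparisons with limma, whether at an adjusted or at an unadjusted p under 0.05. Without wild-type 6 h replicate 1, 1 of 6 passed as lower over time in wild type. At that unadjusted p of 0.05, 7.58% of all genes passed for genotype at 90 min, 28.7% for time in wild type, 27.0% for genotype with time as covariate and 26.6% for time with genotype as covariate. Over time in wild type, 2 of 6 had a positive and 4 of 6 a negative difference, beside 53.1% and 46.9% of all genes, with a median of -0.29 beside 0.05 over all genes. Qdpr, which regenerates the cofactor, had 41.6 and 37.9 FPKM in the wild-type libraries of 90 min, 72.8 and 43.0 FPKM in those of 6 h, and 29.5, 31.4 and 33.8 FPKM in the GdX-/- libraries, the last at 6 h. Adjusted for time, its genotype difference was -0.51 (SE 0.23, limma adjusted p = 0.187). Pts, Spr and Pcbd2, the other genes of the list named by abundance, had time differences in wild type of -0.12, -0.46 and -0.76.

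Arginine and nitric oxide neighbours outside the members were examined through a list of 24 genes, of which 22 were in the table and 18 were tested. In wild type 5 of 18 rose, or 4 of 17 without Slc7a3, and 1 of 18 fell between 90 min and 6 h, beside 4.39% of all genes higher and 6.32% lower. Those that rose were the arginine transporters Slc7a1 and Slc7a3, the proline synthesis enzymes Pycr1 and Aldh18a1, and Prmt1, an arginine methyltransferase. Nostrin, an endothelial protein that binds nitric oxide synthase, fell. Of the 6 endothelial markers, all present and none at 0, 2 also fell, Stab2 and Tie1, with a median of -0.35 over the 6. The wild-type libraries summed these 6 to 55.9 and 71.2 FPKM early and to 31.3 and 53.4 FPKM late, and their part in the Nostrin value was not tested. In the GdX-/- library at 6 h, 7 of 18 were at least 2-fold below the wild-type mean and outside both wild-type libraries, and 1 of 18 was above, beside 5.47% and 16.5% of all genes. The 7 include Slc7a3, which passed the filter only through the wild-type 6 h libraries, and without it the count was 6 of 17. Over all genes this split moved with the scaling, from 1879 higher and 622 lower to 951 and 881 after quantile normalization and to 3317 and 368 after rescaling without globin genes. For the 18 neighbours it was 0 higher and 8 lower, and 2 higher and 6 lower, under these scalings.

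Slc7a3, encoding the CAT3 transporter, stood at 0.270 and 0.200 FPKM in wild type at 90 min, 12.8 and 13.7 FPKM in wild type at 6 h, and 0.370, 0.420 and 0.310 FPKM in the GdX-/- libraries, the last at 6 h. Only the 2 wild-type libraries of 6 h were above 1 FPKM among the 7, so Slc7a3 passed the filter through the group where it is high, and its place among the 5 that rose, or among the 7 that were low in the GdX-/- 6 h library, is not read as support. Its time difference in wild type, 3.53, is given as a description. The calls of Pycr1 (3.53, limma adjusted p = 0.000518) and Prmt1 (1.59, limma adjusted p = 0.00689) held in each of the alternatives run. Slc7a1, the housekeeping transporter CAT1, had 9.47 and 14.8 FPKM in the wild-type libraries of 90 min, 24.8 and 43.8 FPKM in those of 6 h, and 13.4, 8.09 and 11.3 FPKM in the GdX-/- libraries. Its time difference in wild type was 1.40 (SE 0.38, limma adjusted p = 0.0454), a call lost in 8 of the 14 alternatives, with limma adjusted p up to 0.242. At 6 h the GdX-/- library was below the wild-type mean for Slc7a1, with a log2 difference of -1.46 and no test.

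Aldh18a1 rose by 2.45 in wild type (SE 0.40, limma adjusted p = 0.00756), a call lost without a filter on low values (0.0549). Nostrin fell by 1.25 (SE 0.31, limma adjusted p = 0.0329), a call lost in 5 of the 14 alternatives, among them the fits without wild-type 6 h replicate 1 (0.0722) and without wild-type 90 min replicate 1 (0.254) or 2 (0.114). With genotype as covariate 4 of the 18 rose and none fell, beside 2.79% of all genes higher and 2.65% lower. They were Pycr1 (2.43), Aldh18a1 (1.86), Prmt1 (1.16) and Nosip (0.95), which encodes a ligase that binds nitric oxide synthase. Their limma adjusted p lay between 0.0209 and 0.0376. That count fell to 2 after rescaling without globin genes and to 0 without a filter on low values, where 289 and 104 of all genes passed. When 1 library was left out, it fell in most fits and rose in others.

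Polyamine synthesis starts from ornithine. Odc1, ornithine decarboxylase and the most abundant gene of this list, stood at 352 and 398 FPKM in wild type and 258 and 133 FPKM in GdX-/- spleen at 90 min, and at 393 and 372 FPKM in wild type and 125 FPKM in the GdX-/- library at 6 h. Every GdX-/- library was below every wild-type library. Adjusted for time, the genotype difference was -1.25 (SE 0.26, limma adjusted p = 0.0991), which did not pass. It was -1.55 without GdX-/- 90 min replicate 1 and -1.27 without wild-type 90 min replicate 2, and limma adjusted p reached 0.572 without the GdX-/- 6 h library. Srm, spermidine synthase, had 57.7 and 95.2 FPKM in the wild-type libraries of 90 min, 220 and 268 FPKM in those of 6 h, and 78.6, 21.7 and 58.2 FPKM in the GdX-/- libraries, the last at 6 h. With limma no gene of the list passed for genotype at 90 min or with time as covariate, while 2 of 18 and 6 of 18, or 5 of 17 without Slc7a3, had an unadjusted p under 0.05, beside 7.58% and 27.0% of all genes. With time as covariate the difference of Srm was -1.31 (SE 0.42, limma adjusted p = 0.112), and -1.88 without GdX-/- 90 min replicate 1. Calls for genotype gained without that library are not read here, since calls over all genes rose there as well. At 90 min 15 of 18 had a lower and 3 of 18 a higher level in GdX-/- spleen, beside 43.5% and 56.5% of all genes, with a median difference of -0.31 beside 0.07 over all genes.

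**Figure D3:**
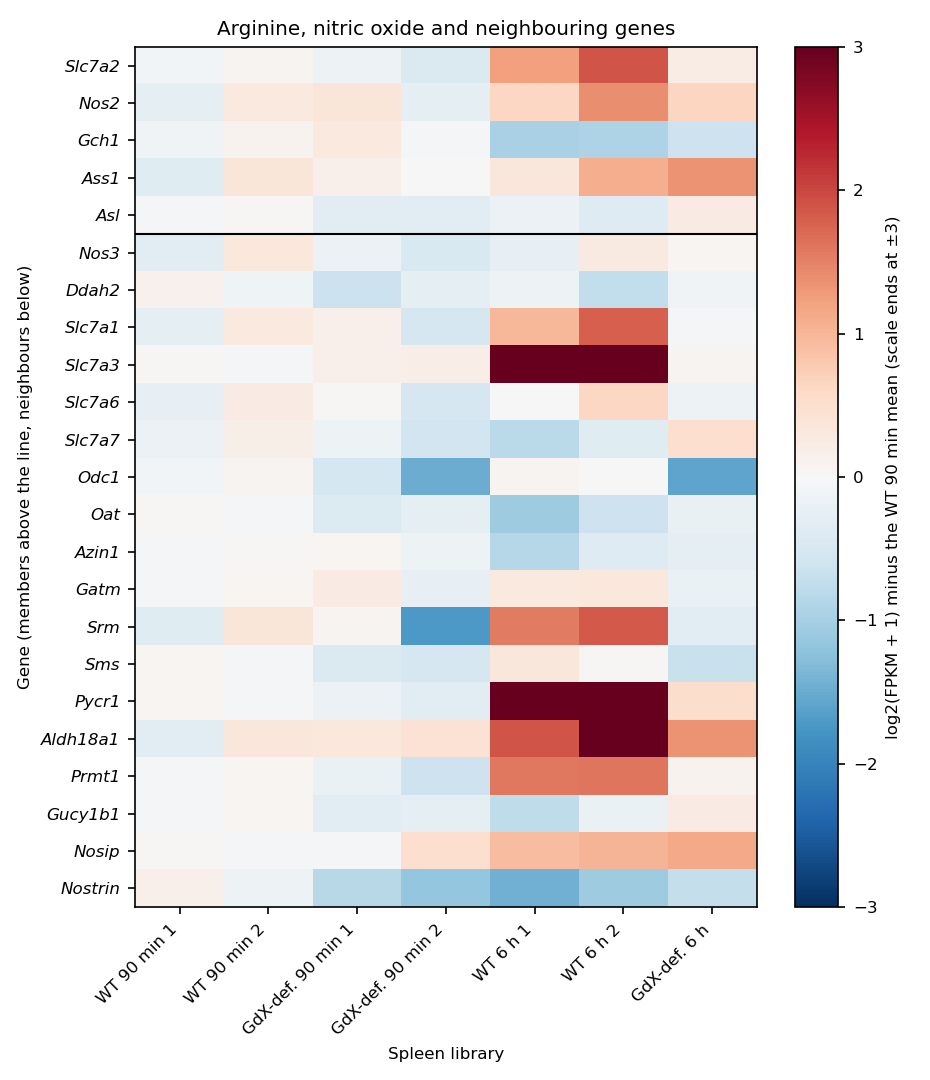
log2(FPKM + 1) of 5 members (above the line) and 18 tested neighbours (below) in the 7 libraries (columns), each relative to the wild-type mean at 90 min. Red is higher and blue lower, with the colour scale ending at 3 in either direction, and Slc7a3 and Pycr1 are dark red in the 2 wild-type libraries of 6 h and pale in the GdX-/- library of 6 h.

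Ass1 and Asl, the citrulline recycling pair, passed in no tested comparison. Ass1 (Entrez gene 11898, chr2:31470270-31520670), argininosuccinate synthase, stood at 20.7 and 35.1 FPKM in wild type and 29.97 and 26.9 FPKM in GdX-/- spleen at 90 min, and at 34.4 and 58.6 FPKM in wild type and 70.3 FPKM in the GdX-/- library at 6 h. Replicate 2 was the higher of each wild-type pair, and wild-type 6 h replicate 1 was just below replicate 2 at 90 min. The time difference was 0.71 in wild type (SE 0.34, limma adjusted p = 0.202) and 0.94 with genotype as covariate (SE 0.27, limma adjusted p = 0.0657), neither past the threshold. Both passed without wild-type 6 h replicate 1, at 1.09 (limma adjusted p = 0.0409) and 1.18 (0.0349). In GdX-/- spleen the 6 h library was 1.28 above the 90 min mean and outside both 90 min libraries, the 1 member past 2-fold there, beside 5.73% of all genes, 4.09% higher and 1.64% lower.

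Asl (Entrez gene 109900, chr5:130011258-130024381), argininosuccinate lyase, stood at 11.3 and 11.9 FPKM in wild type and 8.89 and 8.92 FPKM in GdX-/- spleen at 90 min. At 6 h it stood at 10.2 and 8.56 FPKM in wild type and 14.0 FPKM in the GdX-/- library. The GdX-/- libraries were thus below wild type at 90 min and above it at 6 h, without overlap at either time. The difference at 90 min was -0.35 (SE 0.28, limma adjusted p = 0.657), and with time as covariate it was 0.00 (SE 0.25, limma adjusted p = 0.993). Its sign in that last fit depended on scaling, at -0.22 after quantile normalization.

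Sod2 (Entrez gene 20656, chr17:13007839-13018119), the mitochondrial manganese superoxide dismutase and a classical NF-kB target, stood at 57.0 and 54.3 FPKM in wild type and 41.8 and 38.1 FPKM in GdX-/- spleen at 90 min. At 6 h it stood at 115 and 90.2 FPKM in wild type and 63.5 FPKM in the GdX-/- library. Within each genotype the 6 h libraries were above those of 90 min, and within each time the GdX-/- libraries were below those of wild type. The time difference was 0.78 with genotype as covariate (SE 0.20, limma adjusted p = 0.0471) and 0.86 in wild type (SE 0.25, limma adjusted p = 0.0547). The wild-type difference passed without wild-type 6 h replicate 2 (limma adjusted p = 0.0282) and with the replicate block (0.0321), and its limma adjusted p reached 0.302 without wild-type 90 min replicate 2. The pooled call was lost in each of the 7 fits without 1 library (limma adjusted p from 0.0517 to 0.184) and in 4 of the other 6 alternatives: quantile normalization (0.0559), no filter (0.0724), rescaling without globin genes (0.0962) and the replicate block (0.0547).

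The genotype difference of Sod2 was -0.47 at 90 min (SE 0.25, limma adjusted p = 0.621), -0.55 with time as covariate (SE 0.20, limma adjusted p = 0.125) and -0.67 at 6 h without a test. It was lower in 3 of 3 GdX-/- libraries within their time, while the median of all genes tested lay at 0.16 with time as covariate, at -0.0070 after quantile normalization and at 0.38 after rescaling without globin genes. For genotype, 0 of 8 members passed with limma at 90 min, beside 0.0176% of all genes, and 0 of 8 with time as covariate, beside 0.0439%, 0.0352% higher and 0.00879% lower. At an unadjusted p under 0.05, 0 of 8 passed at 90 min, beside 7.58% of all genes, and 2 of 8 with time as covariate, Sod2 and Slc7a2, beside 27.0%. At 6 h 1 of 8 was at least 2-fold apart and outside both wild-type libraries, Slc7a2, which was lower, beside 22.0% of all genes, 5.47% lower and 16.5% higher.

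Neither oxidase member passed in any tested comparison. Cybb (Entrez gene 13058, chrX:9435252-9487766) stood at 72.3 and 89.0 FPKM in wild type and 105 and 92.7 FPKM in GdX-/- spleen at 90 min, and at 81.3 and 112 FPKM in wild type and 109 FPKM in the GdX-/- library at 6 h. The wild-type times overlapped, and at 6 h the GdX-/- library lay between the wild-type libraries. Its differences were 0.30 for genotype at 90 min (SE 0.26, limma adjusted p = 0.678) and 0.24 over time in wild type (SE 0.26, limma adjusted p = 0.588). Ncf1 (Entrez gene 17969, chr5:134220053-134229628) stood at 137 and 149 FPKM in wild type and 127 and 97.5 FPKM in GdX-/- spleen at 90 min, and at 103 and 118 FPKM in wild type and 128 FPKM in the GdX-/- library at 6 h. Its differences were -0.36 for genotype at 90 min (SE 0.25, limma adjusted p = 0.641) and -0.37 over time in wild type (SE 0.25, limma adjusted p = 0.364).

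Of the other NADPH oxidase genes, 11 of 12 listed were in the table and 6 were tested. Ncf4, which encodes p40phox, fell over time in wild type (-1.15, SE 0.26, limma adjusted p = 0.0262), beside 6.32% of all genes. It was the only one of the 6 past the threshold in a tested comparison with all libraries. It stood at 83.6 and 79.95 FPKM in wild type and 72.9 and 107 FPKM in GdX-/- spleen at 90 min, and at 35.7 and 37.1 FPKM in wild type and 84.9 FPKM in the GdX-/- library at 6 h. The call was lost without wild-type 90 min replicate 1 (limma adjusted p = 0.145) or 2 (0.106) and without a filter (0.0593). In the GdX-/- 6 h library 2 of 6 were at least 2-fold above wild type and outside both libraries, beside 16.5% of all genes: Ncf4 (1.20) and Cybc1 (1.37), which encodes the chaperone of gp91phox. Cybc1 is named for this value, after it was seen. With time as covariate the genotype difference of Cybc1 was 0.84 (SE 0.32, limma adjusted p = 0.140).

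Cybc1 stood at 41.3 and 38.7 FPKM in wild type and 34.8 and 90.3 FPKM in GdX-/- spleen at 90 min, and at 31.1 and 30.8 FPKM in wild type and 81.3 FPKM in the GdX-/- library at 6 h. Its higher libraries, GdX-/- 90 min replicate 2 and GdX-/- 6 h, also had the highest sums of neutrophil markers and of B cell markers. The 12 neutrophil markers, all 12 present and none at 0 in any library, summed to 4887 FPKM in the former and 2607 FPKM in the latter. In GdX-/- 90 min replicate 1 they summed to 1116 FPKM, and in the 4 wild-type libraries to between 797 and 1287 FPKM. S100a9, S100a8 and Retnlg, the most abundant of them, stood at 2118, 1935 and 509 FPKM in GdX-/- 90 min replicate 2, against 459, 440 and 58.9 FPKM in replicate 1. In that replicate 2, 8 of the 12 markers had their highest level of the 7 libraries. The other 4 did not: Cxcr2 was highest in the GdX-/- 6 h library, and Mpo, Elane and Camp, named after their values were seen, lay within the range of the other libraries at 1.92, 3.23 and 58.99 FPKM.

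Markers of other spleen cells also differed by genotype at 6 h and over time in wild type. Between GdX-/- 90 min replicates 1 and 2, where Cybc1 was far apart, their sums did not all move with it. They were 1315 and 2142 FPKM for B cells and 259 and 328 FPKM for T cells. For erythroid, red pulp macrophage and dendritic cell markers they were 1244 and 1052, 626 and 578, and 73.0 and 58.6 FPKM. B cell markers summed to 1792 FPKM in the GdX-/- 6 h library and to between 491 and 1626 FPKM in wild type. In the GdX-/- 6 h library 8 of 9 monocyte and macrophage, 7 of 12 neutrophil, 5 of 7 B cell, 4 of 6 T cell, 2 of 5 dendritic cell, 2 of 6 endothelial, 2 of 6 red pulp macrophage and 6 of 7 erythroid markers were at least 2-fold above wild type and outside both libraries, and none was below, beside 16.5% and 5.47% of all genes. Over time in wild type, where Ncf4 fell, 2 of 9 monocyte and macrophage, 2 of 12 neutrophil, 3 of 7 B cell, 4 of 6 T cell, 3 of 5 dendritic cell, 2 of 6 endothelial, 5 of 6 red pulp macrophage and 6 of 7 erythroid markers fell, beside 6.32% of all genes. The median difference was negative in each of these lists, from -0.33 for neutrophils to -1.82 for red pulp macrophages. The part of any of these cells in the Cybc1 and Ncf4 values was not tested.

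Cyba, the membrane partner p22phox, was the most abundant gene of the list, at 885 and 772 FPKM in wild type and 615 and 441 FPKM in GdX-/- spleen at 90 min, and at 1047 and 569 FPKM in wild type and 615 FPKM in the GdX-/- library at 6 h. The GTPase genes Rac2 and Rac1, which activate the oxidase, had time differences in wild type of -0.69 and 0.15, neither past the threshold (limma adjusted p = 0.107 and 0.761).

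Antioxidant genes were examined as a list of 27, all tested. Over time in wild type 1 of 27 rose, Prdx6 (0.88, limma adjusted p = 0.0481), and 2 of 27 fell, Cat (-1.79, limma adjusted p = 0.0130) and Gpx1 (-1.14, limma adjusted p = 0.0283). Cat kept its call in 13 of 14 alternatives, and Prdx6 and Gpx1 lost theirs in 10 and 5 of 14. Over all genes 4.39% passed as higher and 6.32% as lower. The count of antioxidant calls moved with the settings, from 0 without a filter to 9 with the replicate block (3 higher and 6 lower). Calls over all genes moved as well, to 635 of 17920 without a filter. With the replicate block 2345 of 11378 genes passed, 1073 higher and 1272 lower. With genotype as covariate Prdx6 (0.78) and Txn1 (0.92) rose and Cat fell (-1.26), with limma adjusted p between 0.0460 and 0.0496, beside 2.79% of all genes higher and 2.65% lower. These 3 calls were each lost in at least 9 of the 13 alternatives of that fit. Sod1, the cytosolic superoxide dismutase, and Prdx1, both abundant, passed in no tested comparison.

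Cat, catalase, stood at 20.9 and 29.5 FPKM in wild type and 48.8 and 52.7 FPKM in GdX-/- spleen at 90 min, and at 4.57 and 8.99 FPKM in wild type and 36.5 FPKM in the GdX-/- library at 6 h. Every GdX-/- library was above every wild-type library, and adjusted for time the genotype difference was 1.53 (SE 0.32, limma adjusted p = 0.0991). It was 1.69 without GdX-/- 90 min replicate 1 and 1.79 without wild-type 90 min replicate 2. Red cells are rich in catalase, and the 7 erythroid markers, all 7 present and none at 0, moved with it. They summed to 562 and 639 FPKM in wild type and 1244 and 1052 FPKM in GdX-/- spleen at 90 min, and to 203 and 277 FPKM in wild type and 627 FPKM in the GdX-/- library at 6 h. Their part in the Cat values was not tested.

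**Figure D4:**
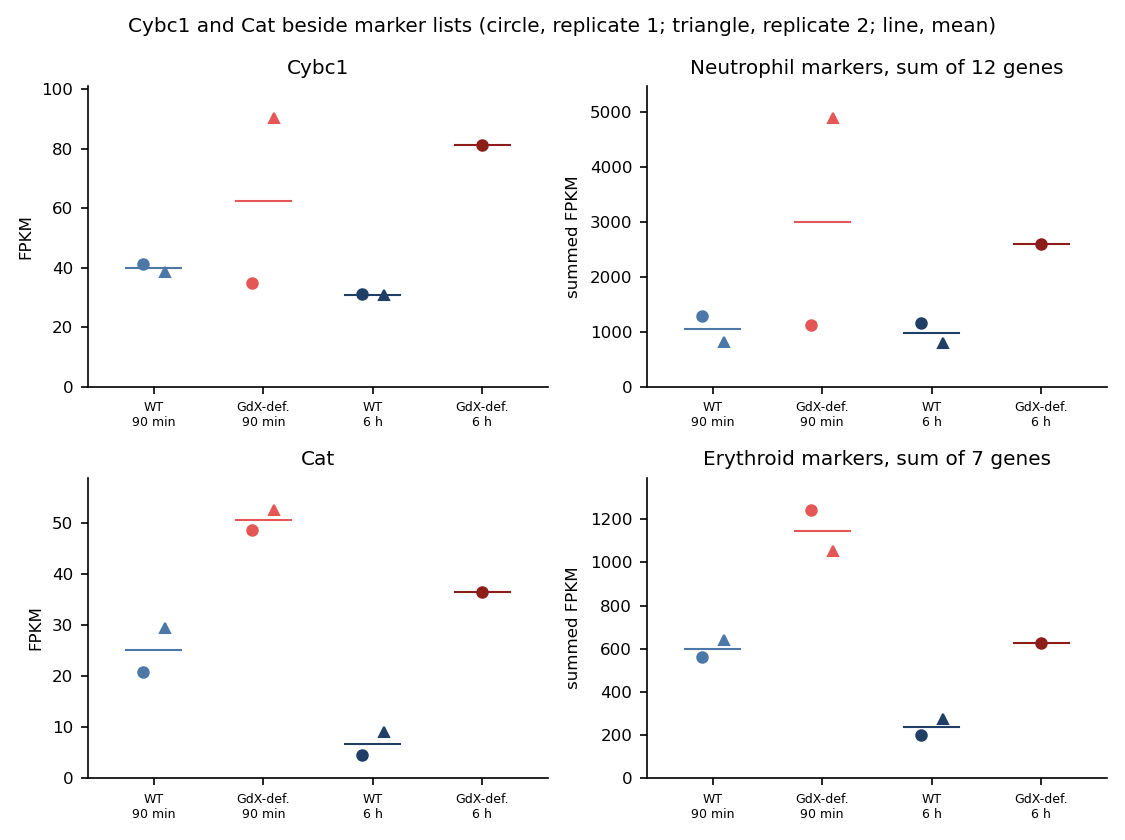
Cybc1 and Cat in FPKM (left) beside the summed FPKM of 12 neutrophil and 7 erythroid markers (right), by genotype and time (horizontal axes), with circles for replicate 1, triangles for replicate 2 and lines for means. The neutrophil sum was 4887 FPKM in the library with the highest Cybc1 level, 90.3 FPKM, and the erythroid sum was lowest in the 2 wild-type libraries of 6 h, where Cat was also lowest. The sum of 7 B cell markers, not drawn, was also highest in the library with the highest Cybc1 level, at 2142 FPKM.

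The genes most like the 3 members of widest range were named by the root mean square difference between centred log2(FPKM + 1) profiles over the 7 libraries. Immunoglobulin and T-cell receptor segments and entries named Gm or Rik were left out of this ranking. Slc7a2 ranged over 1.85 between its lowest and highest group mean, and the nearest profiles were those of Aatf (0.11), Uck2 (0.11) and Eif3c (0.11). Ass1 ranged over 1.35, with Fth1 (0.12), Afap1l2 (0.15) and Gnb4 (0.16) nearest. Sod2 ranged over 1.33, with Fkbp1a (0.08), Psma5 (0.08) and Cwc27 (0.08) nearest. All of these likenesses rest on the same 7 libraries.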

How the data were processed

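The authors deposited a table of FPKM values, rounded to 2 decimals, whose header names each of the 7 libraries by its title. The submitters' processing notes name HISAT, HISAT2 2.0.4, Bowtie2, RSEM and the build GRCm38.p5 without saying which step used which, and filters are not given in the sources used here. Gene and promoter coordinates are RefSeq's on GRCm38.p6, a later patch of the same primary chromosomes.

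Values were converted to log2(FPKM + 1). The 11378 genes with a mean of at least 1 FPKM were fitted with limma 3.58.1 in R 4.3.3, with empirical Bayes moderation, a trend on mean level, two-sided p-values, adjustment by Benjamini and Hochberg over all genes and a threshold of 0.05. Genotype at 90 min and time in wild type came from a fit of the 4 groups to all 7 libraries, and the covariate comparisons from additive models (3 against 4 libraries). Comparisons resting on the single GdX-/- 6 h library were described without a test, counting genes at least 2-fold from the pair's mean and outside both of its members. Depth was estimated from the steps between low FPKM values of genes with 1 transcript of known length, so fragment numbers are approximate. Fits were checked on simulated data.

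The members, the pathway and marker lists and the motifs were chosen with earlier results of these data known. Named genes were the members described, list genes past the threshold, up to 4 of the most abundant of each pathway list, up to 3 of each marker list, and the 3 nearest profiles of the 3 members of widest range. Slc7a7, Gclm, Txn2 and Cybc1, past 2-fold at 6 h, fall outside this rule, as does Cxcr2, named after its values were seen. Of the 10 genes selected, 2 are not reported here, nor is 1 list gene, and all counts over members and lists leave them out, while fits and adjustment kept every gene. Alternatives were a pseudocount of 0.1, no filter or a mean of at least 5 FPKM, quantile normalization, rescaling to 1000000 without globin genes, fitting only the libraries compared, the replicate number as a block, and leaving out each library.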

Additional observations from a re-analysis of the deposited data

Results flagged for a closer look

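In 2 of 8 members the sides lay in opposite directions without overlap, and the difference between the opposite effects was not tested, since 1 effect of each pair rests on the single GdX-/- 6 h library. The share of all genes with opposite directions was not counted, so nothing particular to these members is read from the flag. Separation alone was common: 47.5% of all genes by genotype at 90 min and 80.3% at 6 h. Over time it was 57.9% in wild type and 72.6% in GdX-/- spleen. The effects at 90 min and over time in wild type were tested with limma and did not pass (adjusted p = 0.657 and 0.543 for Asl, 0.641 and 0.364 for Ncf1). Asl was lower in GdX-/- than in wild-type spleen at 90 min (-0.35 on the log2 scale) and higher at 6 h (0.53). Over time, Asl was lower at 6 h in wild type (-0.28) and higher in GdX-/- spleen (0.59). Ncf1 was lower in GdX-/- spleen at 90 min (-0.36) and higher at 6 h (0.21). Over time, Ncf1 was lower at 6 h in wild type (-0.37) and higher in GdX-/- spleen (0.19), where the 6 h library stood at 127.64 FPKM and replicate 1 of 90 min at 127.48 FPKM.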

How the results depend on the processing

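Leaving out 1 library moved most counts of calls. Over the 7 such fits, genes called ranged from 2 to 183 for genotype at 90 min (main value 2), 450 to 1774 for time in wild type (1218), 2 to 1674 for genotype with time as covariate (5) and 154 to 1204 for time with genotype as covariate (619). The extremes were reached without wild-type 6 h replicate 2 (183, 1774), wild-type 90 min replicate 1 (450, 154), GdX-/- 90 min replicate 1 (1674) and the GdX-/- 6 h library (2, 2, 1204). Untested counts ranged from 1887 to 3830 at 6 h (2501) and from 585 to 1336 for time in GdX-/- spleen (652). Members called ranged from 0 to 3 for time in wild type (1), 0 to 1 for time with genotype as covariate (3) and 1 to 2 for genotype at 6 h (1).

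Without a filter on low values the counts were 635 genes and 0 members for time in wild type and 104 genes and 0 members with genotype as covariate. After rescaling without globin genes they were 712 and 0, 289 and 0, 2 genes for genotype with time as covariate and 0 for genotype at 90 min, where globin genes themselves were left out. Quantile normalization gave 3 members for time in wild type, 1 with genotype as covariate and 2 for time in GdX-/- spleen. A pseudocount of 0.1 gave 1033 genes and 2 members for time in GdX-/- spleen, and a mean of at least 5 FPKM gave 421 genes there and 0 members for genotype at 6 h, since Slc7a2 is then not included. Fitting only the libraries compared gave 181 genes for genotype at 90 min. The cause was not tested.

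Replicate numbers are shared by the groups, and no label says that they pair mice. Deviations of same-numbered libraries correlated at -0.12 (wild type and GdX-/- at 90 min), 0.768 (wild type at both times) and 0.0797 (GdX-/- at 90 min and wild type at 6 h) over 11378 genes. With the replicate block, 2345 genes and 3 members passed for time in wild type, 12 genes for genotype with time as covariate, 765 genes and 2 members for time with genotype as covariate and 2 genes for genotype at 90 min. The crossed block, added after seeing the data, also gave 2 genes at 90 min.

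Signs turned for members with differences near 0. Over the fits without 1 library, genotype at 90 min ranged from -0.28 to 0.37 for Nos2, -0.30 to 0.44 for Ass1 and -0.038 to 0.30 for Gch1. With time as covariate the ranges were -0.32 to 0.048 for Nos2, -0.35 to 0.11 for Asl and -0.36 to 0.022 for Ncf1, and with genotype as covariate -0.28 to 0.21 for Asl. With time as covariate Nos2 was at 0.011 after rescaling, Asl at -0.22 after quantile normalization and -0.028 with the replicate block, and Ncf1 at 0.084 after quantile normalization and 0.11 after rescaling. With genotype as covariate Asl was at -0.060 after quantile normalization and -0.013 after rescaling. Of the other values of single members, 465 kept their direction and side of the threshold or moved by less than the replicate spread, 32 lost a call, 9 gained one and 14 moved further. Depth limits Nos2 most, with an estimated 26 fragments in its lowest library.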

Other observations

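Beyond the genes described above, 3 genes of the pathway lists lay at least 2-fold from wild type in the GdX-/- 6 h library and outside both wild-type libraries. Over all genes this held for 22.0%, 16.5% higher and 5.47% lower. Slc7a7 was the 1 of 18 neighbours that was higher. In the antioxidant list, which holds Gclm and Txn2, 2 of 27 were higher and 1 of 27 lower. Slc7a7, the exporter of cationic amino acids, stood at 21.8 FPKM against 8.16 and 11.5 FPKM, and Gclm, the regulatory subunit of glutathione synthesis, at 29.4 FPKM against 7.62 and 17.5 FPKM. Txn2, the mitochondrial thioredoxin, stood at 90.2 FPKM against 254 and 159 FPKM. At 90 min Gclm was also higher in both GdX-/- libraries (48.4 and 37.3 FPKM) than in wild type (17.4 and 27.9 FPKM), and over both times it differed by 1.06 (SE 0.30, limma adjusted p = 0.104, time as covariate).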
